A study of Anolis carolinensis with 15 samples.

Results

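Genes of enzymes that write and erase chemical marks on chromatin, with some partner proteins, were followed in *col3a1*+ cells of regrowing lizard tails. The set is called chromatin enzyme genes for short, though not every member is an enzyme or acts on chromatin. The genes were taken by symbol: DNA methyltransferases (dnmt), TET dioxygenases, histone deacetylases (hdac), sirtuins, lysine demethylases (kdm), lysine methyltransferases (kmt, setd and suv39h), *ezh1* and *ezh2*, the asxl genes, arginine methyltransferases (prmt) and lysine acetyltransferases (kat), with *uhrf1*, *suz12* and *eed* added. This gave 80 genes of 26523, in 10 classes, and all 80 are protein coding in the RefSeq annotation of rAnoCar3.1.pri. The green anole *Anolis carolinensis* sheds and regrows its tail. Bulk RNA-seq covered 15 libraries of cells sorted after hybridization chain reaction (HCR) probe labeling for *col3a1*. For the PBS and ZA cells the study's text gives a sort for *col3a1* without the epidermal keratin *krt5*. For the time course its text names both *krt5*-negative and double-positive cells, so whether double-positive cells were kept there cannot be told from it. Normal regrowth was sampled in 3 libraries each at D7, D14 and D28 after amputation. At D21 there were 3 libraries from lizards given PBS, the vehicle, and 3 from lizards given zoledronic acid (ZA), a bisphosphonate that inhibits osteoclasts, by intraperitoneal injection from the week before amputation until collection. All groups were commercially obtained lizards of both sexes, and the study's text gives a single age range, in months, for all of them. Tail samples were dissociated and their cells fixed before sorting, so that RNA came from fixed cells. The study's text places D7 in the phase when stump tissue is broken down, before the blastema forms. Libraries are called A, B and C by their titles. For PBS A and ZA A the treatment field disagrees with the title, and the title was followed.

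Methyl groups on DNA are placed by dnmt enzymes and oxidized by TET enzymes, and *uhrf1* brings *dnmt1* to newly copied DNA so that the pattern is kept through cell division. On histones, acetyl groups added by acetyltransferases tend to open chromatin and are removed by deacetylases and sirtuins, while methyl groups mark active or silent chromatin depending on the lysine that carries them. Such enzymes have been studied in regenerating fins and limbs of fish and amphibians, where cells of the stump take on other programs with the same DNA sequence. The roles given below are those known from mammals.

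Library totals on genes ranged from 4237978 to 12699682 counts. Normalized counts are counts divided by library size after edgeR's trimmed mean of M values (TMM) scaling, brought to a common size of 8981851. Changes are log2 fold changes with the first group named over the second, so that 1 is a doubling, and a gene is called changed at an adjusted p under 0.05 from edgeR's quasi-likelihood test over all genes tested. The 9 time course libraries were fitted together and share 1 estimate of each gene's spread. Each of them thus enters the p-values of all 3 time comparisons, also where its group is not compared. The library D28 A stood apart. Its median Spearman correlation across genes with the other D28 libraries was 0.80, against 0.87 to 0.98 within groups for the other libraries. For genes with a mean under 10 counts over the 15 libraries, the median of the counts above 0 was 20 in D28 A, against 3 to 11. In the study's principal component plot the libraries grouped by timepoint except for a D14 sample. The study's text calls batch effects the most likely reason, since that sample was sequenced ahead of the others of the time course. The labels do not say which it was, so no adjustment for sequencing run was made. Here the D14 libraries had median correlations of 0.97 to 0.98 within their group. They had 1623 to 1642 genes at 0 counts, against 3462 to 6614 in the other libraries. The part of this in the D14 comparisons was not tested. The study's text also describes similar batch effects among the PBS and ZA replicates, without stating their source, and these were not adjusted for. All 8 listed fibroblast markers were detected in every group, with summed levels of 166170 to 189013 normalized counts at D7, 66712 to 79257 at D14 and 230925 to 859782 at D28. All 8 had a log2 fold change under 0 at D14 against D7, with a median of -1.17 and 2 called lower. Between D28 and D14, 2 were called higher, and between D28 and D7 1 was. Transcripts of other cells were present too. All 5 epidermal markers analysed were called higher at D14 and at D28 than at D7, with summed levels of 3630 to 7045 normalized counts at D7, 26827 to 40228 at D14 and 6316 to 42344 at D28, and *krt5* itself was not analysed here. Of 7 cartilage markers, 5 were called higher at D28 than at D7, with summed levels of 1011 to 5277 at D7, 3324 to 3907 at D14 and 42781 to 63459 at D28. Of 4 Schwann cell markers, 3 were higher at D28 than at D7 (172 to 306 summed at D7 and 454 to 4615 at D28). Markers of leukocytes, osteoclasts, endothelium, muscle and erythrocytes summed to at most 2151 per list in any library. The part of these cells in the values below was not tested. In RNA from pooled cells, fewer cells of a type and less RNA per cell cannot be told apart.

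All 80 genes were detected and all were tested in the time course. Their counts made up 1.32%, 1.37% and 1.49% of all counts on genes in D7 A, B and C, against 1.29%, 1.16% and 1.28% in the D14 libraries. The share was 0.65%, 1.21% and 0.99% in D28 A, B and C. PBS libraries held 0.97%, 1.30% and 0.95%, and ZA libraries 1.03%, 1.40% and 1.20%. Thus every D7 library lay above every D28 library, and D28 A was the lowest of the 15. D28 A was below both other D28 libraries for 56 of the 80 genes, against 42.3% of all genes tested.

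**Figure D1:**
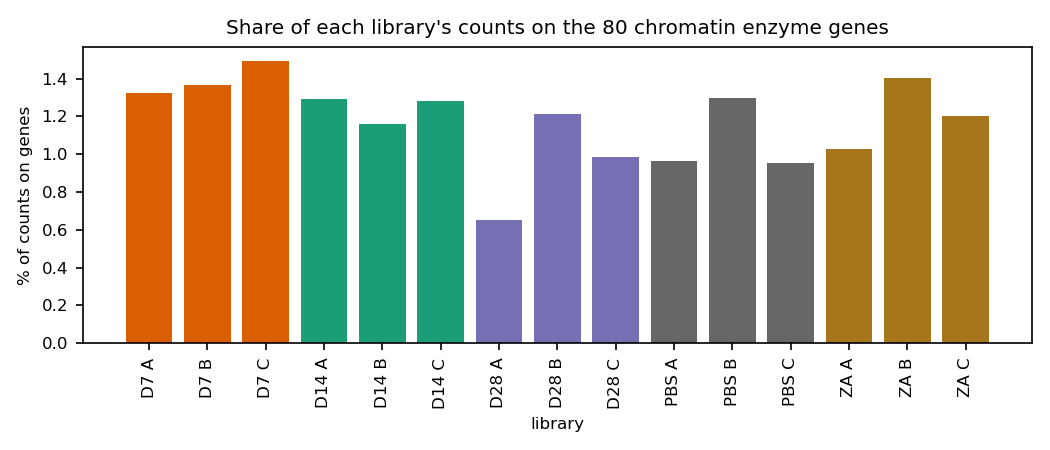
Percent of each library's counts on genes that fell on the 80 chromatin enzyme genes (vertical axis), by library (horizontal axis, colored by group); each bar is 1 library. D28 A, at 0.65%, is the lowest bar and D7 C, at 1.49%, the highest.

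Few of the enzymes were called changed over regrowth, and few of all genes tested were. Between D7 and D14, 0 of the 80 were called higher, where 2.25% of genes tested were, and 1 was called lower, where 2.35% were. Between D14 and D28, 0 were called in either direction, with 0.675% of genes called higher and 0.347% lower. From D7 to D28, 1 was called higher and 5 lower, with 4.18% of genes higher and 4.05% lower. At an unadjusted p under 0.05 there were 10 of 80 for D14 against D7 (21.4% of genes), 3 for D28 against D14 (11.1%) and 24 for D28 against D7 (26.5%). These shares of members called are close to or below those of all genes, so that the counts are not a result about the enzymes as a group. DESeq2, the tool of the study's methods, called 3, 0 and 11 of the 80. Of the 25637 genes it tested, it called 2625, 802 and 3907.

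Most changes were small. The median log2 fold change of the 80 was -0.11 from D7 to D14, against 0.06 over all genes tested, -0.08 from D14 to D28, against 0.05, and -0.20 from D7 to D28, against 0.14. Between D7 and D28, 64 of the 80 changed by less than 1 on the log2 scale, where 12758 of the 21326 genes tested did. The values of the 80 ran from -3.68 for *sirt4* to 1.90 for *dnmt3l*, both of which had counts of 0 in some libraries. The group mean was highest at D7 and lowest at D28 for 28 of the 80 (35%), where 20.3% of genes had this order. Without D28 A that order held for 19 (23.8%, against 22.3% of genes) and the median from D7 to D28 was -0.08, against -0.02.

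**Figure D2:**
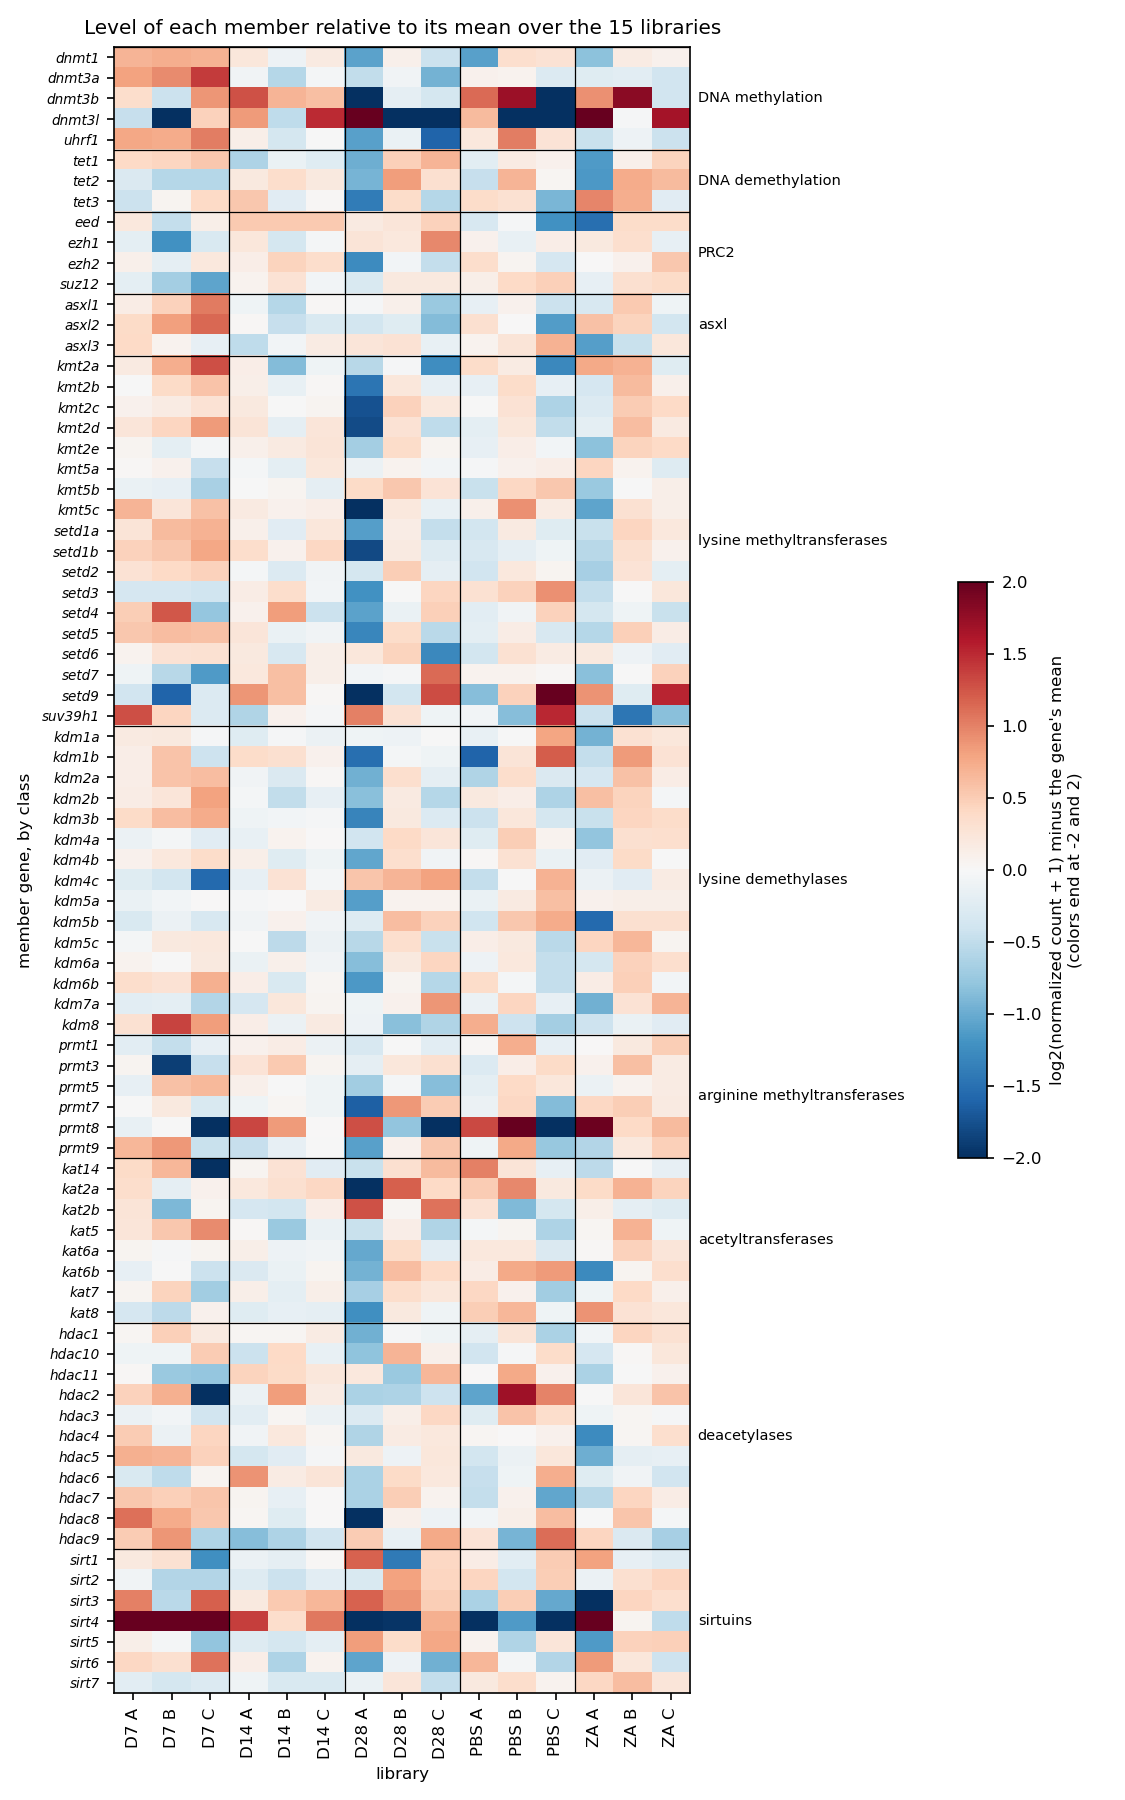
Level of each of the 80 genes (rows, by class) in each of the 15 libraries (columns), as log2 of the normalized count plus 1 minus the gene's mean over the libraries; red is above and blue below that mean, and colors end at -2 and 2. The D28 A column is blue for many rows, and rows of *dnmt1*, *dnmt3a* and *uhrf1* are red in the 3 D7 libraries.

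DNA methylation genes held 2 of the 5 genes called lower at D28, and the only gene called at D14. *dnmt3a*, a methyltransferase that sets new methyl marks (chromosome 1, 629020 to 829718), had 3943, 4351 and 6009.6 normalized counts in the D7 libraries. It had 2152, 1528 and 2196 at D14 and 1606, 2169.9 and 1172 at D28. Every D7 library lay above every D14 and D28 library, and D14 and D28 overlapped. *dnmt3a* fell from D7 to D14 (log2 fold change -1.28 with a standard error of 0.33, edgeR adjusted p = 0.0471) and was lower at D28 than at D7 (log2 fold change -1.53 with a standard error of 0.33, edgeR adjusted p = 0.0186). Between D14 and D28 its log2 fold change was -0.25 with a 95% interval of -0.95 to 0.46. The fall to D14 was close to the threshold. It was not called when any 1 library of D7 or D14 was left out (adjusted p of 0.0649 without D7 A and up to 0.217 from edgeR), and it was called in 8 of 16 other settings (7 other ways of processing the counts and 9 fits with 1 library left out), with a log2 fold change between -1.40 and -1.08. The difference between D28 and D7 was called in 12 of the 16, and not without D7 B, D7 C or D28 C (adjusted p = 0.0658, 0.0867 and 0.0622 from edgeR).

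*uhrf1*, on sequence not placed on a chromosome, encodes the protein that reads hemimethylated DNA behind the replication fork. It had 791, 781 and 941 normalized counts at D7, 504, 365 and 460.1 at D14 and 219, 423 and 152 at D28. D7 libraries lay above all later libraries of the time course, and D14 and D28 overlapped. The fall from D7 to D28 was called (log2 fold change -1.66 with a standard error of 0.38, edgeR adjusted p = 0.0223) and was called again in 13 of 16 other settings. It was not called without D7 B, D7 C or D28 C (adjusted p = 0.0722, 0.0908 and 0.0615 from edgeR). Its partner *dnmt1*, the methyltransferase that copies methylation after replication (chromosome 2, 188193812 to 188273319), had 1132, 1167 and 1135 at D7, 823, 656 and 800.0 at D14 and 334, 757 and 519.7 at D28. The D7 libraries of *dnmt1* were close to each other and above every later library. *dnmt1* was just outside the threshold at D28 against D7 (log2 fold change -1.09 with a standard error of 0.32, edgeR adjusted p = 0.0545). Leaving out D28 A gave -0.84 and an adjusted p of 0.0350. In DESeq2 *dnmt1* passed with an adjusted p of 0.0127, and it was called in 5 of 16 other settings in all. With 1 library left out it was called in 2 of 9 fits, and the adjusted p reached 0.146 (edgeR).

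The remaining DNA methylation genes were counted at low levels and spread widely. *dnmt3b*, the other enzyme of new methylation (chromosome 4, 250528020 to 250597505), had 45.0, 25.8 and 65.3 normalized counts at D7, 86.5, 57.1 and 53.9 at D14 and 0, 30.9 and 27.2 at D28. D14 libraries lay above D28 libraries for *dnmt3b*, and its difference of -1.75 had a 95% interval of -3.91 to 0.42 (adjusted p = 0.581 from edgeR). *dnmt3l*, a cofactor of new methylation with no activity of its own, had 0 to 22 counts in any library, and differences were not detectable at this depth.

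Genes of DNA replication and mitosis were given beside these, since *dnmt1* and *uhrf1* act on newly copied DNA. Of 39 such genes listed, 37 were found and 36 tested. Their summed level was 9153 to 9951 normalized counts at D7, 5843 to 6713 at D14 and 3534 to 5231 at D28, so that the 3 timepoints did not overlap. At D28 against D7, 0 were called higher and 5 lower, where 4.18% and 4.05% of all genes tested were, and their median log2 fold change was -1.21, against 0.14. Without D28 A, 0 were called higher and 9 lower, with a median of -1.07 (10.9% of genes higher and 8.98% lower). The 5 called with all libraries, chosen for naming after their values were seen, were *mcm7* of the replicative helicase (-2.35, adjusted p = 0.00641 from edgeR), *top2a*, a topoisomerase of dividing cells (-2.32, adjusted p = 0.0110), *plk1*, a mitotic kinase (-2.38, adjusted p = 0.00475), *kif23*, a motor of cell division (-2.06, adjusted p = 0.00801), and *rrm1*, which makes DNA precursors (-1.27, adjusted p = 0.0339). The part of replication in the values of *dnmt1* and *uhrf1* was not tested.

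**Figure D3:**
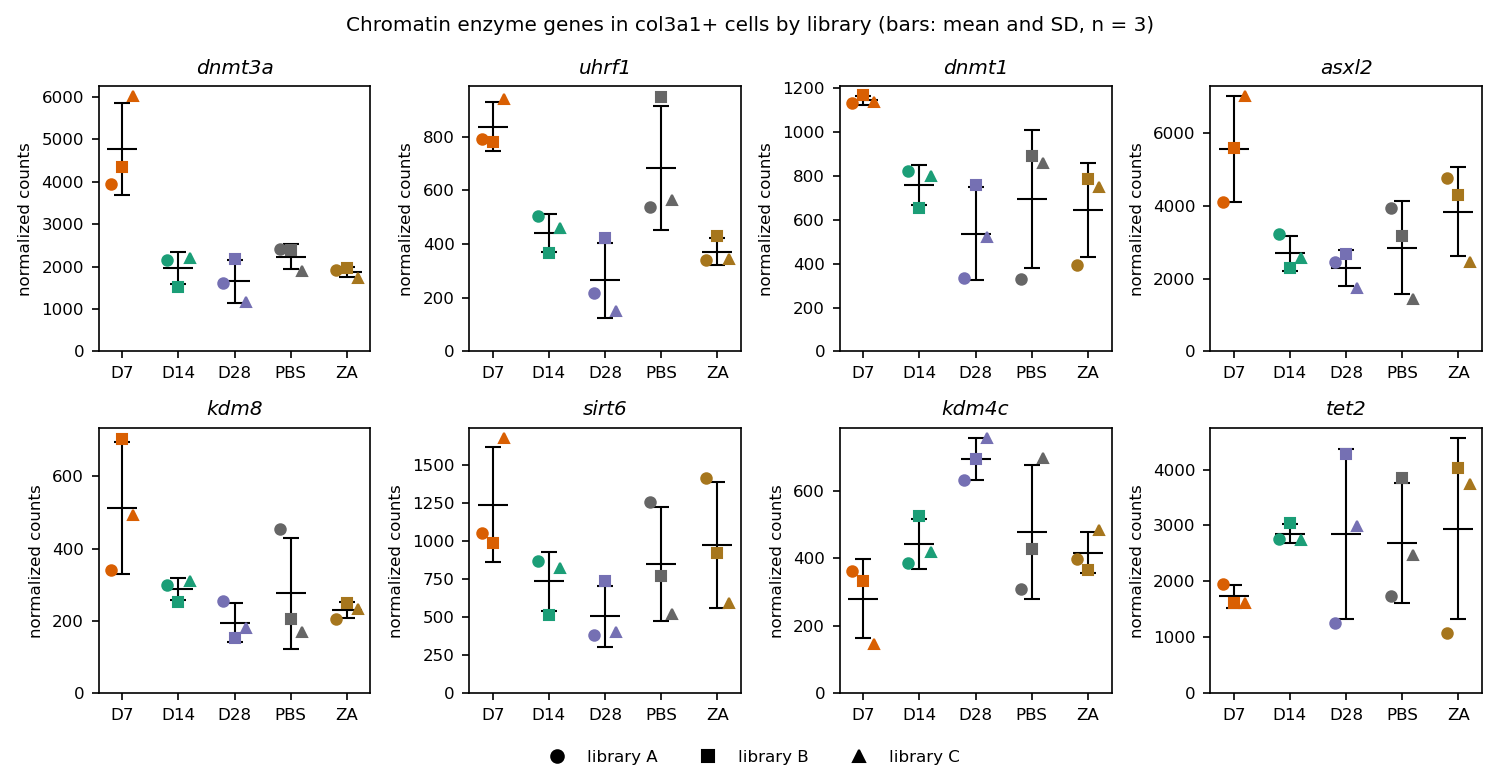
Normalized counts (vertical axis, from 0) of 8 chromatin enzyme genes in the 15 libraries by group (horizontal axis); symbols mark libraries A, B and C, and bars give the mean and SD of 3 libraries. For *dnmt3a*, *uhrf1* and *dnmt1* the 3 D7 libraries lie above all D14 and D28 libraries, and for *kdm4c* the 3 D28 libraries lie above all D7 and D14 libraries.

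None of the 3 TET genes was called with all 9 libraries. The unadjusted p was under 0.05 for 0 of them in every time comparison, and DESeq2 called 0. *tet1*, which oxidizes methylcytosine (chromosome 3, 220788264 to 220899985), had 1209, 1226 and 1326 normalized counts at D7, 597, 828 and 772 at D14 and 465, 1264 and 1468 at D28. D7 libraries lay above D14 libraries, while D28 A was the lowest of the 9 and D28 B and C reached the D7 level. *tet2* (chromosome 5, 27028056 to 27105904), which lacks the DNA-binding domain of its relatives, had 1959, 1619 and 1617 at D7, 2764, 3052 and 2744 at D14 and 1259.5, 4284 and 2991 at D28. All D14 libraries and D28 B and C were above D7 for *tet2*, and D28 A was below. D28 A is not part of D14 against D7 but enters its p-values through the shared spread. Leaving it out took the genes called there from 980 to 3550. With D28 A left out, 1 gene of the 79 then tested was called higher at D14 than at D7 (8.86% of genes) and 5 lower (8.03%). *tet2* was the gene called higher (log2 fold change 0.72, adjusted p = 0.0409 from edgeR) and *tet1* was among the 5 called lower (-0.78, adjusted p = 0.0270), with *dnmt3a*, *asxl2*, *hdac5* and *hdac8*, so that the direction of change from D7 to D14 was opposite in the 2 genes. Both log2 fold changes were the same to 2 decimals with all 9 libraries. The difference between the 2 genes was not tested. *tet3* had 5290.4, 7383 and 9446 at D7, 10368, 6088 and 7291 at D14 and 2711, 9225 and 4795 at D28, and the timepoints overlapped.

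Polycomb repressive complex 2 (PRC2) puts methyl groups on histone H3 that mark silent genes. Of its 4 genes, 0 were called in any time comparison by edgeR or by DESeq2, and 1 had an unadjusted p under 0.05 in each comparison. *ezh2*, the catalytic subunit that prevails in dividing cells (chromosome 6, 50625029 to 50717940), had 484, 396 and 519.6 normalized counts at D7, 494, 612 and 573 at D14 and 187, 435 and 324 at D28. D28 libraries lay below D14 libraries, with a log2 fold change of -0.83 (95% interval -1.56 to -0.09, adjusted p = 0.378 from edgeR). *ezh1*, the catalytic subunit of resting cells, had 88.9, 43.4 and 82.2 at D7, 119, 79.4 and 99.0 at D14 and 121, 118 and 197 at D28. D28 libraries were above D7 libraries for *ezh1*, with a log2 fold change of 1.03 (95% interval 0.04 to 2.01, adjusted p = 0.173 from edgeR). The difference between the changes of *ezh1* and *ezh2* was not tested. *suz12*, a core subunit, had 809, 575 and 445 at D7, 971, 1138 and 895 at D14 and 752, 1059 and 1055 at D28, and *eed*, which binds the finished mark, had 72.3 to 146 in the 9 libraries.

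The asxl genes encode partners of BAP1, an enzyme that removes ubiquitin from histones. *asxl2* (chromosome 1, 259375 to 352499) had 4113, 5586 and 7017 normalized counts at D7, 3227, 2301 and 2565 at D14 and 2468, 2669.7 and 1740.3 at D28. D7 libraries were above all D14 and D28 libraries, which overlapped. It was lower at D28 than at D7 (log2 fold change -1.28 with a standard error of 0.32, edgeR adjusted p = 0.0316), called in 8 of 16 other settings. With 1 library left out it was called without D7 A, D28 A or D28 B, and the adjusted p was 0.0504 to 0.130 without any other (edgeR). *asxl1* had 2605, 3238 and 4833 at D7, 2215, 1585 and 2369.6 at D14 and 2309, 2516 and 1405 at D28. Its D7 libraries were likewise the highest, with a log2 fold change of -0.78 at D28 that did not pass (adjusted p = 0.172 from edgeR). *asxl3* ranged from 323 to 605 and its timepoints overlapped. The spans of *asxl2* and *asxl3* overlap those of other annotated genes, and reads in shared sequence could have been counted for either gene.

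Position was not used to choose the genes. Of 65 genes on placed sequence, 7 pairs lay within 1000000 bases of each other. *asxl2* and *dnmt3a* were 276520 bases apart on chromosome 1 with 2 annotated genes between them, and both were called lower at D28 (log2 fold changes -1.28 and -1.53). Their relatives *asxl1* and *dnmt3b* were 336980 bases apart on chromosome 4 with 4 genes between them, and had -0.78 and -1.21, neither called. The other pairs were *dnmt3l* and *kdm6a*, *sirt1* and *tet1*, *kdm1b* and *sirt5*, *setd1a* and *kat8*, and *kdm2b* and *setd1b*. In the first 3 of these the D28 against D7 values had opposite signs.

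Of the 18 lysine methyltransferases, edgeR called 0 over time, with 2, 0 and 6 at an unadjusted p under 0.05 for D14 against D7, D28 against D14 and D28 against D7. DESeq2 called 2 at D28 against D7. *kmt2a*, which methylates histone H3 at active genes, had 7560.2, 11062 and 16342 normalized counts at D7, 7292, 3651 and 6266 at D14 and 4540.2, 6600.5 and 2815 at D28. Its D7 libraries were above all D14 and D28 libraries, but edgeR did not call it at D28 against D7 (log2 fold change -1.32 with a standard error of 0.42, edgeR adjusted p = 0.0736), and DESeq2 called it (adjusted p = 0.0193). *kmt5b*, which adds methyl groups to histone H4 and was named after its values were seen, was called higher by DESeq2 (adjusted p = 0.0350), with 0.71 and adjusted p = 0.121 in edgeR. *setd7*, a methyltransferase of histone and other proteins (chromosome 5, 43809864 to 43842133), had 762, 549 and 369.8 at D7, 934, 1233 and 882 at D14 and 783, 800.1 and 1778 at D28. It stood above D7 in every later library, with a 95% interval of 0.15 to 1.85 at D28 against D7 (edgeR adjusted p = 0.128) and a value of 1.20 when D28 A was left out (adjusted p = 0.0377). *setd2*, which methylates histone H3 along transcribed genes, ranged from 1296 to 2311, and *kmt5a*, which places the first methyl group on a lysine of histone H4, from 385 to 619. *suv39h1*, which writes the methyl mark of heterochromatin, ranged from 30.6 to 117 with overlapping timepoints. Among the 18, 12 had a log2 fold change under 0 and 6 above 0 at D28 against D7, with a median of -0.30. Of all genes tested 45.0% were under 0, with a median of 0.14. The count of signs in the class was not tested.

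Lysine demethylases held the only gene called higher. *kdm4c*, which erases the heterochromatin mark among others (chromosome 2, 240050403 to 240448578), had 362, 332 and 146 normalized counts at D7, 385, 525 and 418 at D14 and 633, 693 and 755 at D28. All D28 libraries were above all D14 libraries, which were above all D7 libraries. *kdm4c* rose from D7 to D28 (log2 fold change 1.31 with a standard error of 0.36, edgeR adjusted p = 0.0435), and was called in 7 of 16 other settings. With 1 library left out it was called without D28 A, and the adjusted p was 0.0527 to 0.124 without any other (edgeR). *kdm8*, an oxygenase of the demethylase family whose substrates are debated, lies on unplaced sequence and had 339.8, 705 and 492 at D7, 301, 253 and 309 at D14 and 255, 153 and 180.2 at D28. D7 libraries were above all D14 and D28 libraries for *kdm8*, and it was lower at D28 (log2 fold change -1.39 with a standard error of 0.35, edgeR adjusted p = 0.0350). It was called in 8 of 16 other settings. With 1 library left out it was called without D7 A or D28 A, and the adjusted p was 0.0585 to 0.139 without any other (edgeR). The span of *kdm4c* overlaps that of another annotated gene.

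Other demethylases moved less. *kdm6b*, which erases the mark that PRC2 writes, had 9019, 8677 and 11576 normalized counts at D7, 7773, 5739 and 7281 at D14 and 3204, 7357 and 4794 at D28. D7 libraries were the highest, with -0.93 at D28 (95% interval -1.70 to -0.16, adjusted p = 0.120 from edgeR and 0.0462 from DESeq2). Its relative *kdm6a* ranged from 669 to 1632, with -0.06 at D28 (95% interval -0.78 to 0.65). *kdm1a*, an eraser of marks of active genes, had 435, 442 and 378 at D7, 326, 379 and 357 at D14 and 362, 358 and 385 at D28, with -0.18 (95% interval -0.77 to 0.40). Both intervals lie within 1 on the log2 scale. Of the 15 demethylases, 11 had a log2 fold change under 0 from D7 to D28 and 4 above 0, where 45.0% of genes tested were under 0. Without D28 A *kdm6a* had a value above 0 (0.23), and 50.6% of genes were under 0. The count of signs in the class was not tested. *kdm5b*, an eraser of such marks chosen for naming after its values were seen, passed as higher only without D28 A (0.79, adjusted p = 0.0236 from edgeR).

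Arginine methyltransferases and acetyltransferases had no gene called over time, with 0 called by DESeq2, and unadjusted p under 0.05 for 1 of 6 and 2 of 8 genes at D28 against D7. *prmt1*, the main arginine methyltransferase, ranged from 274 to 426 normalized counts in the 9 libraries, with 0.11 at D28 against D7 (95% interval -0.51 to 0.72). *prmt5*, which sets symmetric dimethylation, had 164, 277 and 290.0 at D7, 197, 184 and 173 at D14 and 113, 179.6 and 101 at D28, with -0.89 (95% interval -1.70 to -0.08, adjusted p = 0.152 from edgeR). Among acetyltransferases, *kat2b*, a coactivator, had 188, 83.7 and 164 at D7, 125, 121 and 173 at D14 and 384, 163 and 334 at D28. D28 A and C were the highest and D28 B lay among the earlier libraries, with 1.07 at D28 against D14 (adjusted p = 0.368 from edgeR). *kat2a*, its relative, was at 0 in D28 A and between 54 and 147 counts in the other time course libraries. A count of 0 allows up to 3 counts by counting error alone, and this limit may be too low for D28 A. *kat6a*, an acetyltransferase of histone H3, ranged from 1347 to 3533.

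Of 11 histone deacetylases, edgeR called 0 over time with all libraries, and 1, 0 and 0 had an unadjusted p under 0.05 in the 3 comparisons. DESeq2 called 1, *hdac5*, at D14 against D7. *hdac5*, a class IIa deacetylase chosen for naming after its values were seen (chromosome 6, 23768021 to 23883416), had 1062, 1037 and 893 normalized counts at D7, 504, 550.1 and 638 at D14 and 736, 599 and 759 at D28. D7 libraries were above all D14 and D28 libraries, with no call at D14 (log2 fold change -0.82 with a standard error of 0.26, edgeR adjusted p = 0.0934) and an adjusted p of 0.0221 without D28 A. D28 A bears on D14 against D7 through the shared spread. *hdac8*, a class I enzyme, was likewise named after its values were seen and was called lower at D14 without D28 A (-0.88, adjusted p = 0.0408). *hdac7*, of class IIa like *hdac5*, had 4909, 4714 and 4958 at D7, 3497, 3003 and 3376 at D14 and 2170.5, 4733 and 3556 at D28. Its D7 libraries were above D14, while D28 B reached the D7 level. *hdac4* ranged from 435 to 942 and *hdac9* from 27.3 to 93.0. The class I enzymes that act in corepressor complexes spread likewise. *hdac1* had 359, 485 and 394 at D7, 359, 359.7 and 391 at D14 and 179, 343 and 329 at D28, with a log2 fold change from D7 to D28 of -0.54 (95% interval -1.25 to 0.17). *hdac2* had 102, 122 and 9.67 at D7, 68.5, 133 and 83.7 at D14 and 47.4, 47.9 and 55.2 at D28, and D7 C was the lowest of the 9 libraries.

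Sirtuins, deacetylases that consume NAD, differed among themselves. *sirt6*, a nuclear sirtuin of DNA repair and metabolism on unplaced sequence, had 1055, 987 and 1672 normalized counts at D7, 866, 515 and 823 at D14 and 380.2, 735 and 402 at D28. D7 libraries were above all D14 and D28 libraries, and *sirt6* was lower at D28 (log2 fold change -1.29 with a standard error of 0.36, edgeR adjusted p = 0.0490), called in 6 of 16 other settings. With 1 library left out it was called without D28 A or D28 B, and the adjusted p was 0.0630 to 0.185 without any other (edgeR). *sirt4*, a mitochondrial sirtuin chosen for naming after its values were seen (chromosome X, 6512501 to 6517715), had 51, 114 and 80 counts at D7, 44, 21 and 32 at D14 and 0, 2 and 20 at D28. D7 libraries were above all D14 and D28 libraries, and a count of 0 allows up to 3 counts by counting error alone. This limit may be too low for D28 A. The fitted change of *sirt4* from D7 to D28 did not pass (log2 fold change -3.68 with a standard error of 1.10, edgeR adjusted p = 0.0594). It passed without D28 A (-3.12, adjusted p = 0.0271), without D28 C and in DESeq2 (adjusted p = 0.00248), and its span overlaps 2 other annotated genes. *sirt1* had 164, 176 and 60.4 normalized counts at D7, 132, 126 and 145 at D14 and 326, 52.9 and 190.1 at D28, with overlapping timepoints. *sirt2* passed as higher at D28 than at D7 only without D28 A (1.02, adjusted p = 0.0150), and was also named after its values were seen.

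Leaving out D28 A gave 5 genes called higher at D28 than at D7, where 10.9% of genes were, and 7 lower, where 8.98% were. The 6 genes called with all libraries were among these 12. The others were *tet2*, *setd7*, *kdm5b* and *sirt2* as higher and *dnmt1* and *sirt4* as lower. Of 79 genes tested in both fits, 12 changed sign, and none of the 12 was called in either fit. With another library left out, the number called ran from 0, without D7 B or D7 C, to 10, without D28 B, and was 1 without D28 C. That gene was *sirt4*, and none of the 6 called with all libraries was called there. Over all genes, 339 of 21186 were called without D7 B and 300 of 21215 without D7 C. Without D28 B 1733 of 21224 were called, and without D28 C 781 of 21110.

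**Figure D4:**
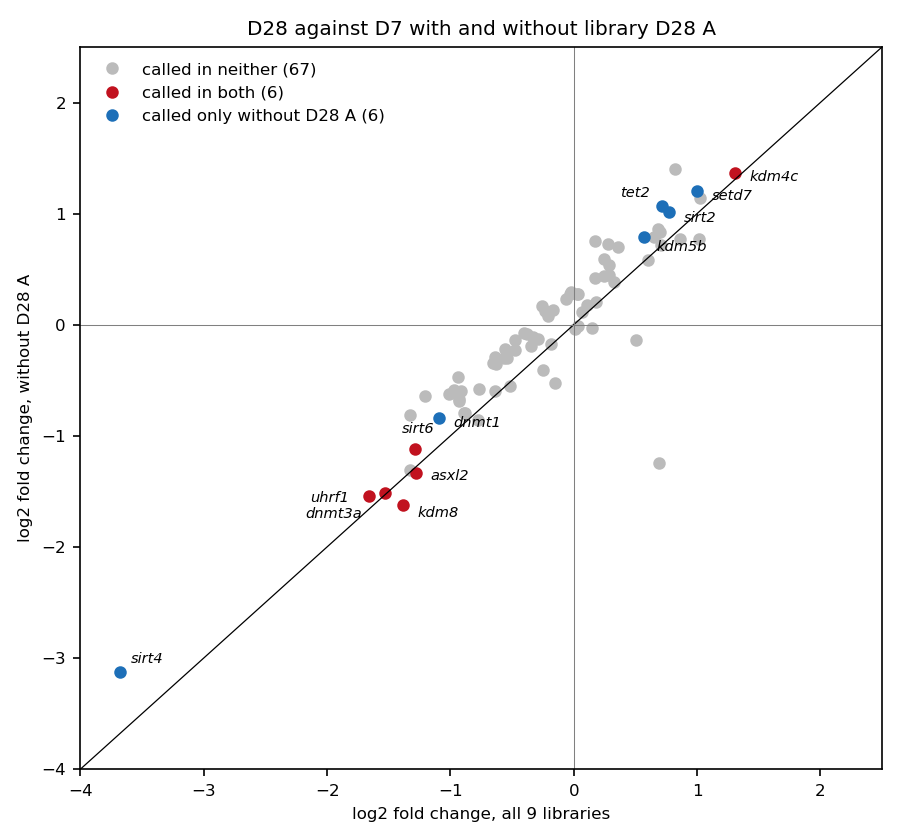
Log2 fold change of D28 against D7 for the 79 chromatin enzyme genes tested in both fits, with all 9 libraries (horizontal axis) and without D28 A (vertical axis); the diagonal marks equal values. The 6 red points are called in both fits, the 6 blue points only without D28 A, and most points lie above the diagonal.

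A wider list of 65 other chromatin genes, which the symbol rule does not take, was set beside these. At D28 against D7, 0 of the 65 were called higher and 5 lower, where 4.18% and 4.05% of all genes tested were, with a median log2 fold change of -0.56, against 0.14. Without D28 A, 4 were called higher and 7 lower (10.9% and 8.98% of genes), with a median of -0.25, against -0.02. Among the 5 called lower with all libraries, and named after their values were seen, were *ehmt2*, which writes a silencing mark on histone H3 (-1.60, adjusted p = 0.0133 from edgeR), *nsd2*, which methylates histone H3 along genes (-1.62, adjusted p = 0.0238), and *ring1* of Polycomb repressive complex 1 (-1.58, adjusted p = 0.0179). At D28 against D14, 0 were called, with 5 at an unadjusted p under 0.05.

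No enzyme passed the test between ZA and PBS. Of the 80, 78 passed the filter on low counts in the 6 PBS and ZA libraries, and the genes left out were *dnmt3l*, with 0 to 22 counts, and *sirt4*, with 0 to 20 counts. edgeR called 0 of the 78 in either direction, where 0.0105% of genes tested were called higher and 0.0369% lower. At an unadjusted p under 0.05 there was 1 of 78, where 4.57% of genes were. DESeq2, which tested all 80, called 0 of them, and 77 of 24952 genes. Its unadjusted p was under 0.05 for 3 members, *uhrf1* and the low-count genes *dnmt3l* and *sirt4*. The median edgeR log2 fold change was 0.00, against 0.01 over all genes tested. Of the 78, 77 changed by less than 1 on the log2 scale, where 15915 of the 18988 genes tested did. With libraries of the same letter paired, 0 were called, where 32 of 18988 genes were, and 6 had an unadjusted p under 0.05. The share of all genes at that unadjusted p was not computed for the paired fit or for DESeq2. The member counts at that p in these fits are therefore not a result about the enzymes.

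*uhrf1* was the gene with the smallest p. It had 537, 948 and 564 normalized counts in PBS A, B and C and 340.3, 432 and 345 in ZA A, B and C, and the 3 PBS values were all higher than the 3 ZA values. The difference did not pass (log2 fold change -0.87 with a standard error of 0.37, edgeR adjusted p = 0.999). *dnmt1* had 331, 892 and 859.5 in PBS and 396, 786 and 749 in ZA libraries, with A the lowest in both groups. *dnmt3a* had 2419, 2381 and 1886 in PBS and 1926, 1955 and 1739.9 in ZA libraries, with -0.25 (95% interval -0.98 to 0.48). The groups overlapped for both genes. All PBS and ZA libraries of *dnmt3a* lay below all D7 libraries, a comparison across experiments that was not tested. The same held for *dnmt1* but not for *uhrf1*, where PBS B lay above all D7 libraries. Nor did it hold for *asxl2* (4772 in ZA A and 4113 in D7 A) or *kdm8* (453 in PBS A and 340 in D7 A). For *sirt6*, PBS A had 1254 and D7 A 1055.

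Other core genes overlapped between PBS and ZA as well. *tet2* had 1749, 3852 and 2475 in PBS and 1081, 4019.5 and 3738 in ZA libraries, again with A the lowest in each. *tet3* had 9225, 8813 and 3810.1 in PBS and 14049, 11885 and 6134 in ZA libraries. *ezh2* had 577, 469 and 357 in PBS and 454, 480.1 and 653 in ZA libraries. The 95% interval of the log2 fold change was -0.62 to 0.97 for *ezh2*, -0.65 to 1.09 for *kdm6b*, -0.46 to 1.22 for *hdac1* and -0.59 to 0.97 for *kat6a*. Larger changes lie outside the intervals of these 4 genes, and smaller ones cannot be told from none. Among the 78 genes tested with edgeR the largest difference in size was that of *suv39h1*, with 45.4, 25.8 and 136 in PBS and 34.7, 16.7 and 25.9 in ZA libraries and a log2 fold change of -1.43 (95% interval -3.24 to 0.38). PBS C was the highest of the 6. ZA A lay below both other ZA libraries for 52 of the 80 genes, where 46.0% of genes tested did, and PBS A below both other PBS libraries for 36, where 33.3% did. With both A libraries left out, 0 of the genes were called. The cell markers differed too. The summed level of the 7 cartilage markers was 22667 to 159297 normalized counts in PBS and 2015 to 4397 in ZA libraries, with no overlap. All 7 had a log2 fold change under 0, with a median of -4.80 and 6 at an unadjusted p under 0.05. Of the 7, 1, *acan* of cartilage matrix, was called lower with ZA (-4.98, adjusted p = 0.0332 from edgeR). All 8 fibroblast markers had values under 0 (median -0.88, 1 at an unadjusted p under 0.05, summed 144688 to 398581 in PBS and 72252 to 190900.0 in ZA libraries) and all 5 epidermal markers values above 0 (median 0.82, 1 at an unadjusted p under 0.05), with 0 called in either list. The part of these cells in the values of the enzymes was not tested. Of the other lists, 0 of 34 replication and mitosis genes and 0 of 65 other chromatin genes were called.

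**Figure D5:**
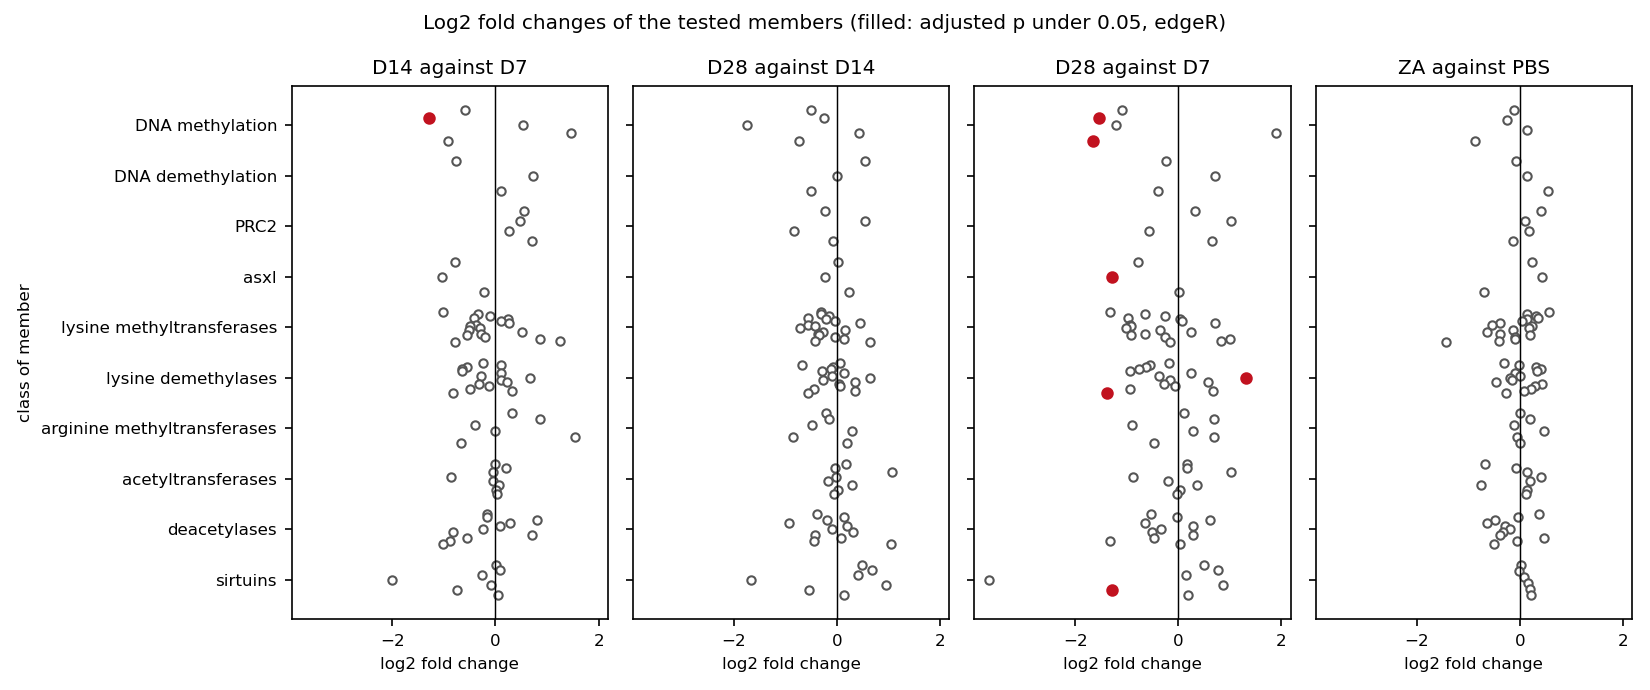
Log2 fold changes (horizontal axis) of the tested chromatin enzyme genes by class (vertical axis) in the 4 comparisons; each circle is a gene, and filled red circles have an adjusted p under 0.05 from edgeR. There is 1 filled circle at D14 against D7, 6 at D28 against D7 and none in the other panels.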

How the data were processed

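RNA of HCR-sorted *col3a1*+ cells was sequenced from 15 libraries, 3 per group, grouped by title. Per the study's methods, reads were aligned to rAnoCar3.1.pri with STAR, and the submitters' processing notes name SAMtools 1.17 and DESeq2 1.45.1. The authors deposited 1 count per gene and library. The deposited values are named as normalized but are whole numbers whose totals differ (4237978 to 12699682), and they were treated as counts. Rounded normalized values could look the same, so this reading is not settled. The p-values from edgeR and DESeq2 rest on it. The counting tool and its strand setting are not given in the sources used here, so that genes with overlapping spans (20 of 65 placed members) and near-identical copies are uncertain. Besides those marked above, these include *tet1*, *dnmt3b*, *suz12*, *setd2*, *hdac4*, *hdac7*, *hdac9*, *prmt5* and *kat2b*. Overlap was not checked for members on unplaced sequence, among them *uhrf1*, *kdm8*, *sirt6* and *kmt2a*.

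Members were matched by symbol, all 80 also in RefSeq (15 on unplaced sequence). Members, classes and lists were chosen with earlier results of these data known. TMM factors were computed over the 15 libraries. The filter kept genes that reached 10 counts in 3 or more libraries of a fit, and these were tested with edgeR 4.0.16 (quasi-likelihood, Benjamini-Hochberg over 21326 genes for the 9 time course libraries and 18988 for the 6 PBS and ZA libraries). A call is an adjusted p under 0.05. Named are a set of core members, up to 6 called rises and falls per comparison, and members left out by the filter. Any other gene is marked where named, and some genes of the wider lists are not reported here. Levels were not compared between genes, since transcript lengths were not used here. Fits were also run on simulated data, with planted changes larger than any called for a member. That run therefore does not show how well changes of the sizes reported here are found. The study's text gives 3 tails, called biological replicates, per PBS and ZA group, and 3 repeats of the experiment per timepoint. The labels do not tie libraries to animals, so p-values measure the spread between these samples, which may be technical in part. The labels do not say whether letters pair the PBS and ZA libraries. Correlations of deviations from the group means were weak within each letter (0.21, 0.17 and 0.13). Between unlike letters they ran from -0.21 to 0.08, so pairing by letter is not established. A fit paired by letter called 0 members, as the unpaired fit did, and 32 genes in all, against 9. Alternatives were DESeq2 1.42.0, its size factors, TMM within each experiment, other filters, the fold threshold of the methods, all libraries in 1 fit, each library left out, and PBS A and ZA A left out or read by their treatment entries. R 4.3.3 and Python 3.11.15 with matplotlib 3.10.9 were used. The limit of 3 counts for a count of 0 covers counting error only. It may be too low in D28 A, where the counts above 0 of genes with low means were larger than in the other libraries.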

Additional observations from a re-analysis of the deposited data

How the results depend on the processing

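For D14 against D7 the 1 member called became 3 with DESeq2, and 0 with no filter on low counts, with the fold threshold of the methods, against the mean of the other timepoints, and with the replicate block. For D28 against D7 the 6 members called became 11 with DESeq2, 1 with the replicate block (*uhrf1*), 0 with that fold threshold and 0 against the mean of the other timepoints. Over all genes, calls for D14 against D7 were 980 in the main fit, 2625 with DESeq2 and 591 with the block. For D28 against D7 they were 1756, 3907 and 842. With 1 library left out in turn, the member counts ran from 0 to 6 and from 0 to 12, and those over all genes from 55 to 3550 and from 300 to 4169. In the time course, correlations of deviations ran from -0.11 to 0.11 within a letter and from -0.16 to 0.19 between unlike letters. The reason for the loss of calls under the block was not tested. For D28 against D14 and ZA against PBS 0 members were called in every setting, the block included. TMM within each experiment, DESeq2 size factors, a mean count of at least 50 and all 15 libraries in 1 fit left the counts within 1.5 times. Every named member that was called kept its direction in the 16 settings. The changes called in the main fit lay between -1.66 and 1.31 on the log2 scale. Size alone did not set the calls. Larger changes of genes with low counts were not called, such as -3.68 for *sirt4* at D28 against D7 and -1.75 for *dnmt3b* at D28 against D14. Smaller changes were mostly not resolved with 3 libraries per group.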
